A study of Mus musculus with 8 samples.

Results

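The genes described here encode the glutathione, peroxiredoxin, thioredoxin and metallothionein systems of the cell, together with the transcription factor NRF2 (Nfe2l2) and its repressor KEAP1. They were taken by gene symbol. The rule took every gene whose symbol starts with Gsta, Gstm, Gstp, Gstt or Gsto (cytosolic glutathione S-transferases), Gpx (glutathione peroxidases) or Prdx (peroxiredoxins). It added Mgst1 to Mgst3, Txn1, Txn2, Txnrd1, Txnrd2, Txnip, Srxn1, Sod1 to Sod3, Cat, Gclc, Gclm, Gss, Gsr, Nqo1, Hmox1, Nfe2l2, Keap1, Mt1 and Mt2. Of 24594 genes in the table, 59 met the rule and 57 of them had a count in any library. Gpx5 and Gpx6 had 0 counts in all 8 libraries.

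Cells reduce hydrogen peroxide, lipid peroxides and reactive electrophiles with thiols. Glutathione, a tripeptide whose synthesis is limited by the enzyme made of Gclc and Gclm, is the electron donor of the glutathione peroxidases and is joined to electrophiles by the glutathione S-transferases, while peroxiredoxins draw their electrons from thioredoxin. In unstressed cells KEAP1 holds NRF2 for degradation, and when KEAP1 is modified NRF2 enters the nucleus and activates genes through antioxidant response elements. Metallothioneins are small cysteine-rich proteins that bind zinc, copper and cadmium and are induced by metals and glucocorticoids.

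RNA was sequenced from luminal epithelial cells of the mammary gland of wild type C57BL/6J mice without treatment, with 4 libraries from luminal progenitors (LP, c-Kit high) and 4 from differentiated luminal cells (called mature here, c-Kit low). Glands were dissociated with enzymes and the labels name EpCAM, CD49f, c-Kit and CD14 as the surface markers of the sort, while the study's text describes these fractions by c-Kit alone. Kit was thus a sorting marker, and Cd14 is one by the labels. The labels give no age, and the study's methods give an age range of adult mice for its experiments as a whole. Those methods speak of biological replicates in RNA sequencing, but of fewer per condition than the 4 libraries held here, and do not say which libraries came from the same mouse, so the p-values measure only the spread between these libraries. Since RNA was taken from pools of sorted cells, fewer cells that express a gene and less of its RNA per cell cannot be told apart.

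Library totals ran from 5510863 to 7089597 counts in LP and from 4410049 to 7791593 in mature cells. Levels are given as CPM, the counts of a gene per 1000000 counts of the library's TMM-scaled total, and a log2 fold change above 0 means a higher level in LP. Markers of the fractions were read. Kit and Cd14 were higher in LP, but as sorting markers (Cd14 by the labels) they are no independent check of the fractions. Of the other LP markers Elf5 was higher in LP, and Aldh1a3 was not called (adjusted p = 0.0512). Pgr, Esr1, Prlr and Areg were higher in mature cells. Mature replicate 3 stood apart. Its summed level of 10 genes that respond to cell dissociation (Fos, Hspa1a and others) was 17990 CPM against 3909 to 4797 in the other mature libraries and 1424 to 2009 in LP, and its summed LP markers reached 966 CPM against 244 to 715 in the other mature libraries. Most of its dissociation sum was Hspa1a, Hspa1b and Dnajb1, at 8253, 3779 and 3244 CPM. Fos (479 CPM), Fosb (3.32), Egr1 (210) and Ier2 (192) were also highest there among mature libraries. Jun (1143 CPM), Junb (342) and Atf3 (348.5) were not. Of those 10 genes 6 were called higher in mature cells and 1 in LP, and their part in the results below was not tested. Markers of other cell types were also summed. Fibroblast markers ran from 7.35 to 41.7 CPM in LP and 27.0 to 179 CPM in mature cells, with Col1a1 at most 1.74 CPM in any library. Most of the mature sum was Dcn, at 24.7, 23.3, 10.6 and 1.53 CPM in LP replicates 1 to 4 and 132, 154, 14.2 and 20.6 CPM in mature replicates 1 to 4. Dcn overlapped between the fractions and was not called (log2 fold change -2.41, SE 0.87, adjusted p = 0.0675), but it was called higher in mature cells with a replicate block (adjusted p = 0.0136) and without mature replicate 3 (0.0295). Mature replicates 1 and 2, which held most Dcn, were also the highest mature libraries for Mt1, Mt2, Hmox1, Gsr, Gstm2 and Ggt1. The same held for Krt8, Krt18 and Krt19 of the 4 luminal markers, which were called higher in mature cells. Epcam, the remaining luminal marker, was lowest in those replicates, at 1595, 1779, 1870 and 2287 CPM in mature replicates 1 to 4. It overlapped between the fractions and was not called (log2 fold change 0.26, adjusted p = 0.332). The pattern of highest levels in mature replicates 1 and 2 did not hold for Gclc, Gsta4, Gpx3, Prdx2, Prdx6, Prdx6b and Txnip, which were also called higher in mature cells. Summed basal markers ran from 18.2 to 49.6 and from 15.9 to 79.4 CPM, immune markers from 41.8 to 55.9 and from 11.1 to 47.8 CPM with Cd3e at 0, endothelial markers from 3.05 to 8.48 and from 0.984 to 8.08 CPM with Kdr at 0, and adipocyte markers up to 6.81 and 2.02 CPM with Lep and Cidec at 0. No marker of the fibroblast, basal, immune, endothelial and adipocyte lists was called by edgeR with all libraries and no block. With a replicate block Oxtr of the basal list (adjusted p = 0.0462) and Cd68 of the immune list (0.0475) were called higher in LP. Leaving out a library called Oxtr (0.00522 without mature replicate 3), Cd68 (0.0331 without mature replicate 2) and the basal gene Cnn1 (0.048 without LP replicate 3, higher in mature cells), and DESeq2 called Oxtr (0.0454) and Acta2 (0.0222, basal, higher in mature cells). The part of these markers in the results below was not tested.

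Antioxidant genes differed between the fractions in both directions. Of the 57 genes 48 had enough counts to be tested, and 26 of these (54.2%) were called, that is, they had an adjusted p under 0.05 in edgeR's quasi-likelihood test after the Benjamini-Hochberg adjustment across the whole set of 12816 tested genes, of which 24.7% were called. In LP 16 were higher, where the share over all genes was 10.9%, and in mature cells 10 were higher, where it was 13.8%. Libraries of the fractions did not overlap in 28 of the 48 genes (29.5% of all genes), with LP above in 18 (14%) and mature cells above in 10 (15.5%). An absolute log2 fold change above 1 together with a call was found for 22 (16.1% of all genes). The median log2 fold change over the 48 genes was 0.19 (0.00 over all genes) and the median of its absolute value was 1.00 (0.55 over all genes). These genes were also more abundant than the rest, with a median of 6.5 log2 CPM against 4.70. Without mature replicate 3 the numbers were 28 called, 16 higher in LP and 12 in mature cells, where 26.2% of all genes were called. A replicate block gave 25 (23.6% of all genes) and the DESeq2 Wald test 29 (29.6%).

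**Figure D1:**
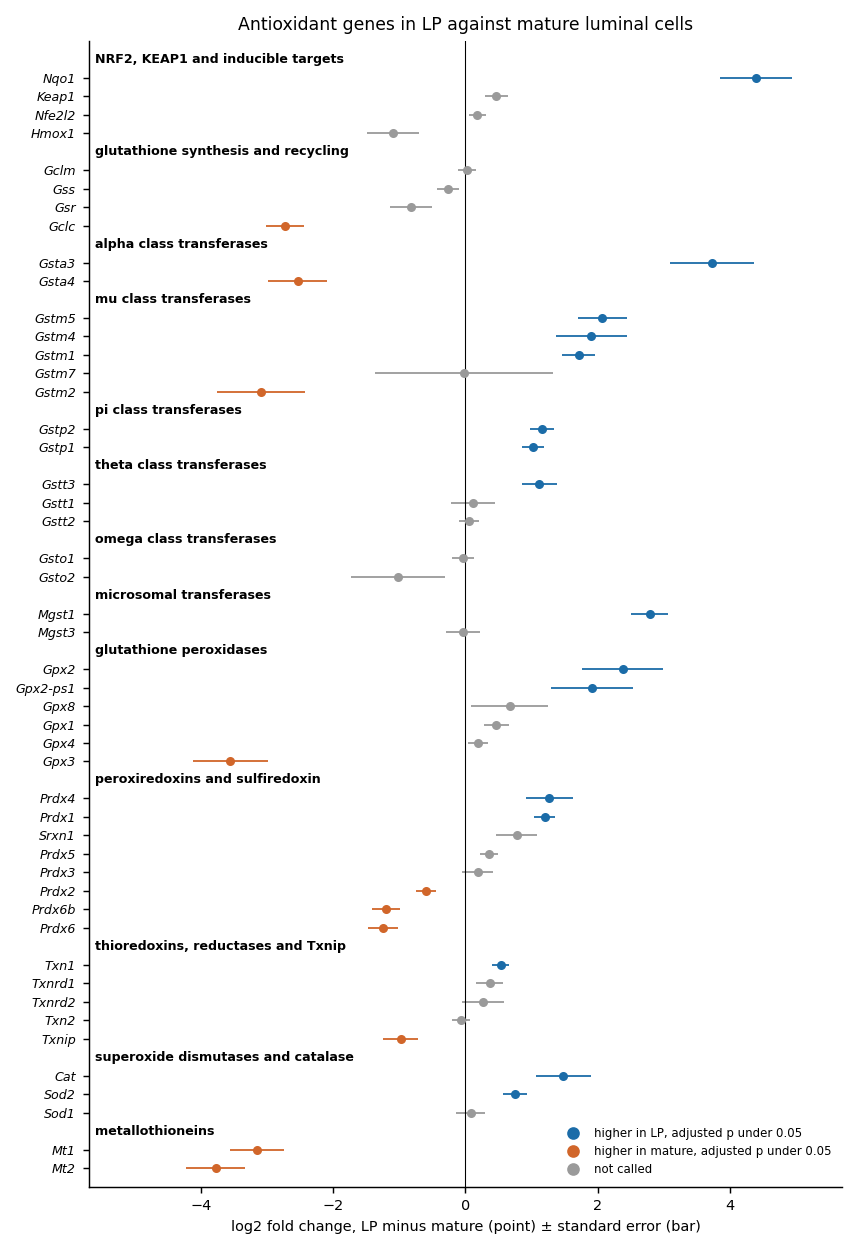
Log2 fold change of the 48 tested antioxidant genes, LP minus mature (x axis), with 1 row a gene grouped by role. Points are edgeR estimates and bars their standard errors. Colour gives the call at an adjusted p under 0.05 (blue higher in LP, orange higher in mature cells, grey not called). Called genes lie from -3.78 (Mt2) to 4.39 (Nqo1), and the transferases, glutathione peroxidases and peroxiredoxins each hold called genes on both sides of 0.

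Neither Nfe2l2 nor Keap1, the regulators named above, was called. Maff and Mafk, whose proteins pair with NRF2, were higher in mature cells and are given below. Nfe2l2, which encodes NRF2, was at 245, 222, 213 and 233 CPM in LP replicates 1 to 4 and 199, 222, 195 and 189.5 CPM in mature replicates 1 to 4. These values overlapped between the fractions and the gene was not called (log2 fold change 0.18, SE 0.13, adjusted p = 0.362, 95% interval -0.12 to 0.48). Keap1, whose protein marks NRF2 for degradation, was at 59.4, 55.8, 59.8 and 60.5 CPM in LP replicates 1 to 4 and 54.4, 39.1, 40.3 and 36.2 CPM in mature replicates 1 to 4. LP libraries lay above the mature libraries by a narrow margin and the gene was not called (log2 fold change 0.47, SE 0.18, adjusted p = 0.0781), although without mature replicate 1 it was (adjusted p = 0.0271). Gm16754 on the opposite strand overlaps 10.9% of the exonic bases of Keap1, and whether the counting used strand is not given in the sources used here.

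Of the 2 inducible enzymes set beside these regulators, Nqo1 had the largest LP excess of all 48 genes. Nqo1 encodes a quinone reductase widely used as a readout of NRF2 activity and lies on the minus strand of chr8:107388225-107403205 in mm10. It was at 218, 220.1, 121 and 279 CPM in LP replicates 1 to 4 and 2.53, 5.25, 19.9 and 11.6 CPM in mature replicates 1 to 4. Every LP library was above every mature library, the mean was 21.3-fold higher in LP, and the gene was called (log2 fold change 4.39, SE 0.54, adjusted p = 0.000567). Among mature libraries replicate 3 was highest, and without it the log2 fold change was 5.02. Hmox1, which degrades haem and is induced through NRF2 and by loss of its repressor BACH1, pointed the other way without a call. It was at 174, 88.0, 273 and 184 CPM in LP replicates 1 to 4 and 436, 649.6, 227 and 226 CPM in mature replicates 1 to 4. The fractions overlapped, with mature replicates 1 and 2 above the rest (log2 fold change -1.10, SE 0.40, adjusted p = 0.0691). Hmox1 was called without LP replicate 3 (adjusted p = 0.048), without mature replicate 3 (0.0416) and by DESeq2 (0.019).

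**Figure D2:**
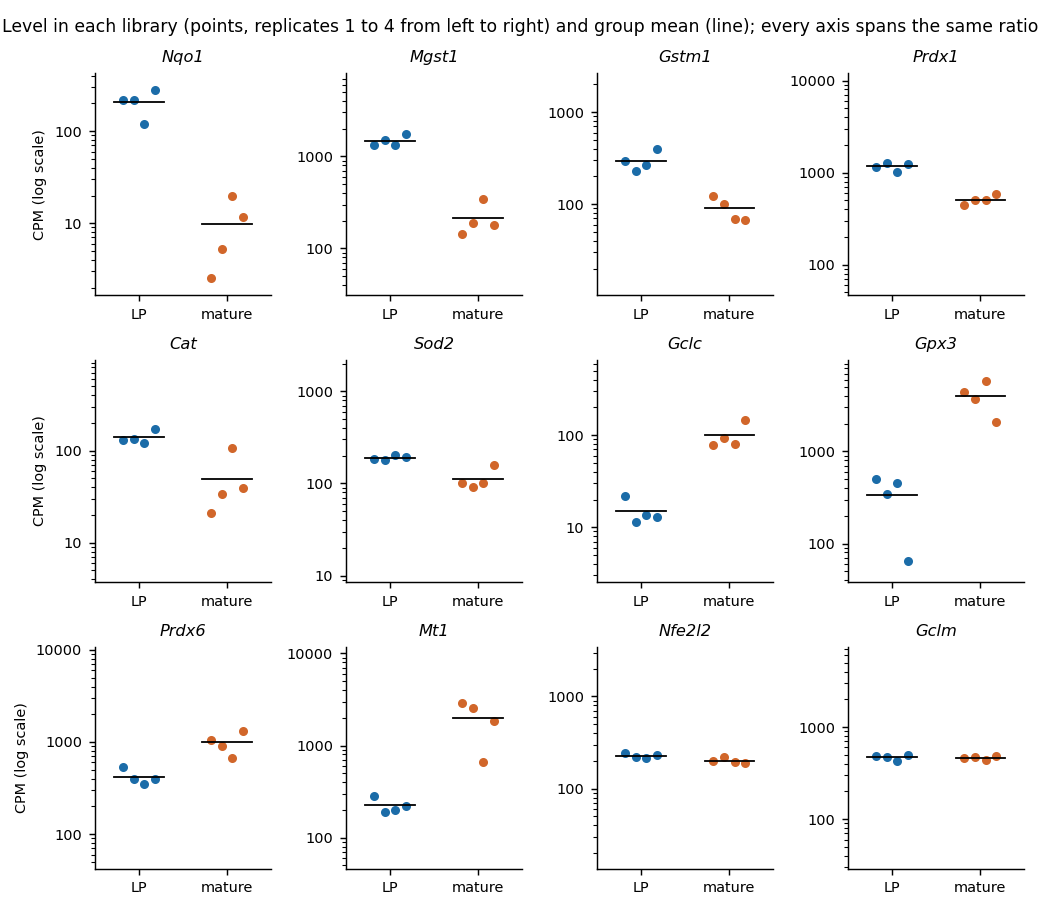
Levels of 12 antioxidant genes in each of the 8 libraries, in CPM on a log scale whose upper end is the same multiple of its lower end in every panel. Points are replicates 1 to 4 from left to right (blue LP, orange mature) and lines are means. Nqo1, Mgst1, Gstm1, Prdx1, Cat and Sod2 sit higher in LP, Gclc, Gpx3, Prdx6 and Mt1 sit higher in mature cells, and Nfe2l2 and Gclm overlap.

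Promoter sequence was read for these genes because NRF2 acts through a short DNA element. RefSeq promoter windows of 300 bases (250 before and 50 after an annotated start, GRCm38.p6, the mm10 assembly) were found for 48 of the 57 genes, 61 windows in all. The core of the antioxidant response element was searched as TGACNNNGC on both strands. It was present in 11 of the 61 windows (18%) and in 12.4% of all 32851 promoter windows. By gene these were Gsta3, Gstm5, Mgst1 and Prdx1, which were higher in LP, Mt2, which was higher in mature cells, and Gclm, Gstm7, Nfe2l2, Sod1, Srxn1 and Txnrd1, which were not called. The core was in 4 of 19 windows of genes called higher in LP (21.1%) and in 1 of 6 windows of genes called higher in mature cells (16.7%). Nqo1 had no match in its window. No window was found for Gclc, Gsta4, Prdx6 and Prdx6b, which were higher in mature cells, or for Gpx2-ps1, which was higher in LP. The same was true of Gsr, Hmox1, Gstt2 and Sod3, which were not called or not tested. Sequence outside the windows was not searched for any gene. The 5 sites printed here are those of called genes, 5′ to 3′ on the gene's strand with the core in capitals, which reads as its reverse complement where it lies on the opposite strand.
Prdx1, chr4:116685456-116685484, plus strand: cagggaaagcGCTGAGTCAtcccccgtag
Mgst1, chr6:138140461-138140489, plus strand: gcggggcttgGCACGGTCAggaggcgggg
Gstm5, chr3:107895802-107895830, plus strand: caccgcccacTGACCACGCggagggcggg
Gsta3, chr1:21240454-21240482, plus strand: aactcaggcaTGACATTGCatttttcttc
Mt2, chr8:94172529-94172557, plus strand: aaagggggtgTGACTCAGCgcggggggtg
The core began 133 bases before the start in Prdx1, 56 in Mgst1, 42 in Gstm5, 121 in Gsta3 and 79 in Mt2. In Prdx1 and Mt2 it overlaps TGACTCA, the letters of the AP-1 element, which were present in 5.2% of all windows. A match is a description of the letters and was not tested as a binding site.

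Glutathione synthesis and recycling showed a difference in a single gene, Gclc. Gclc encodes the catalytic subunit of glutamate-cysteine ligase, the enzyme that sets the rate of glutathione synthesis, and lies on the plus strand of chr9:77754535-77794489. It was at 22.1, 11.4, 13.6 and 13.0 CPM in LP replicates 1 to 4 and 78.2, 94.0, 80.5 and 147 CPM in mature replicates 1 to 4. Mature libraries were all above LP libraries, with a mean 6.65-fold higher (log2 fold change -2.73, SE 0.29, adjusted p = 0.000298). Gclm, the regulatory subunit of the same enzyme, was at 484, 473, 429.6 and 497 CPM in LP replicates 1 to 4 and 458, 474, 444 and 481 CPM in mature replicates 1 to 4. The 8 values spanned a narrow range and overlapped (log2 fold change 0.02, SE 0.14, adjusted p = 0.928, 95% interval -0.28 to 0.33). In CPM, Gclc was 2.40% to 4.55% of Gclm in LP libraries and 17.1% to 30.5% in mature libraries. Per kilobase of exon, Gclm stood at 74.9 CPM in LP against 3.99 for Gclc, and at 73.8 against 26.5 in mature cells. Gsr, which reduces oxidised glutathione with NADPH, was at 249, 179.6, 168 and 185 CPM in LP replicates 1 to 4 and 474, 433, 141 and 337 CPM in mature replicates 1 to 4. Mature replicate 3 lay below every LP library while the other 3 mature libraries lay above them, and the gene was not called (log2 fold change -0.83, SE 0.32, adjusted p = 0.0853). It was called without mature replicate 3 (log2 fold change -1.05, adjusted p = 0.00313). DESeq2 also called it with all libraries (adjusted p = 0.0392). Gss, the second enzyme of glutathione synthesis, was not called (log2 fold change -0.27, adjusted p = 0.286).

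Cytosolic glutathione S-transferases were, in sum, more abundant in LP. Their summed level was 888 to 1053 CPM in LP libraries and 427 to 551 CPM in mature libraries, which did not overlap. Within the family the classes and their members differed. Of 14 tested cytosolic transferases 9 were called, 7 higher in LP (Gsta3, Gstm1, Gstm4, Gstm5, Gstp1, Gstp2 and Gstt3) and 2 higher in mature cells (Gsta4 and Gstm2), beside 24.7% of all genes called, 10.9% toward LP and 13.8% toward mature cells.

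The mu class lies in a cluster on chromosome 3, where Gstm5, Gstm7, Gstm6, Gstm3, Gstm2, Gstm1 and Gstm4 follow each other between 107895854 and 108045179 in mm10. Gstm1, its most abundant member, was at 291, 231, 266 and 400.2 CPM in LP replicates 1 to 4 and 124, 101, 69.0 and 68.1 CPM in mature replicates 1 to 4. All LP libraries lay above the mature libraries (log2 fold change 1.71, SE 0.25, adjusted p = 0.00104). Gstm2, the next member along the chromosome (chr3:107981702-107986420, minus strand), was at 1.597, 2.59, 0.332 and 2.50 CPM in LP replicates 1 to 4 and 18.3, 27.1, 5.63 and 10.2 CPM in mature replicates 1 to 4. The order was the opposite of that of Gstm1, with every mature library above every LP library (log2 fold change -3.09, SE 0.67, adjusted p = 0.00751), from 49 counts in LP and 340 in mature cells. Of the 51-base windows in the transcripts of Gstm1 22.7% also occur in other genes, against 9.1% for Gstm2. Gstm5 was at 86.7, 95.2, 64.1 and 101 CPM in LP replicates 1 to 4 and 11.5, 20.2, 38.5 and 12.4 CPM in mature replicates 1 to 4. Its LP values were all above its mature values, of which replicate 3 was highest (log2 fold change 2.07, SE 0.37, adjusted p = 0.00292). Gstm4 was at 25.0, 30.5, 20.2 and 21.1 CPM in LP replicates 1 to 4 and 4.92, 1.58, 4.33 and 14.6 CPM in mature replicates 1 to 4. Its fractions did not overlap (log2 fold change 1.90, SE 0.54, adjusted p = 0.0253), but the call was lost without LP replicate 1 (adjusted p = 0.0558), LP replicate 2 (0.0697), mature replicate 1 (0.0627) or mature replicate 3 (0.051). Without mature replicate 4, whose Gstm4 was highest in its fraction, the log2 fold change was 2.73. Gstm7, at 32 and 26 counts in the fractions, was not called, and Gstm3 and Gstm6 were too low to test.

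Alpha class members also moved apart. Gsta3 was at 20.3, 19.98, 17.1 and 18.9 CPM in LP replicates 1 to 4 and 0.984, 0, 2.02 and 2.41 CPM in mature replicates 1 to 4. Mature libraries were all below LP libraries, replicate 2 with 0 counts, and the gene was called higher in LP (log2 fold change 3.73, SE 0.63, adjusted p = 0.00235). Gsta4, which is known for its activity on 4-hydroxynonenal, an aldehyde product of lipid peroxidation, was at 7.12, 8.05, 2.82 and 5.69 CPM in LP replicates 1 to 4 and 29.7, 39.7, 15.01 and 54.1 CPM in mature replicates 1 to 4. Every mature library was above every LP library, and mature replicate 3 was the lowest of them (log2 fold change -2.54, SE 0.45, adjusted p = 0.00276). Gsta1 and Gsta2 were too low to test, with 12 and 14 counts over the 8 libraries.

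Pi class enzymes were about 2-fold higher in LP. Gstp1 was at 106, 112, 122 and 118 CPM in LP replicates 1 to 4 and 56.7, 67.8, 43.0 and 59.1 CPM in mature replicates 1 to 4 (log2 fold change 1.02, SE 0.17, adjusted p = 0.00208). Gstp2, its neighbour on chromosome 19, was at 57.6, 58.1, 66.6 and 65.8 CPM in LP replicates 1 to 4 and 27.7, 31.3, 21.6 and 30.9 CPM in mature replicates 1 to 4 (log2 fold change 1.16, SE 0.18, adjusted p = 0.00167). Neither overlapped between the fractions. The transcripts of the pair share most of their sequence (62.1% of the 51-base windows of Gstp1 are found in Gstp2), and Gstp2 was 46.1% to 55.8% of Gstp1 in every library, so they are best read as their sum, which was 164 to 189 CPM in LP and 64.7 to 99.0 CPM in mature libraries. Gstp3 was too low to test.

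Theta and omega classes held a single call. Gstt3 was at 152, 169, 133 and 146 CPM in LP replicates 1 to 4 and 77.9, 44.6, 48.2 and 105 CPM in mature replicates 1 to 4. LP libraries were above mature libraries, of which replicate 4 came nearest (log2 fold change 1.12, SE 0.26, adjusted p = 0.0106), and 26.0% of its 51-base windows also occur in Gm20441, a transcript on the same strand. Gstt1 and Gstt2, which lie beside it on chromosome 10, were not called, with log2 fold changes of 0.12 and 0.06 and adjusted p-values of 0.835 and 0.82. Gsto1 and Gsto2 were not called either (-0.04 and -1.02, adjusted p = 0.889 and 0.326). Gstt4 had 0 counts in LP, which allows up to 0.118 CPM there, and 6 counts in mature cells.

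Mgst1 was the most abundant antioxidant gene of LP per length. It encodes a transferase of the endoplasmic reticulum and outer mitochondrial membrane that also reduces lipid hydroperoxides, and it lies on the plus strand of chr6:138140527-138156755. Mgst1 was at 1328, 1497, 1330 and 1756 CPM in LP replicates 1 to 4 and 142, 188, 348 and 179.6 CPM in mature replicates 1 to 4. The LP libraries were all above the mature libraries, the mean was 6.89-fold higher (log2 fold change 2.78, SE 0.28, adjusted p = 0.000269), and mature replicate 3 had the highest level of its fraction. Per kilobase of exon it stood at 734 CPM in LP and 106 in mature cells. Mgst3, a member of the same superfamily, was not called (log2 fold change -0.04, SE 0.26, adjusted p = 0.938), and Mgst2 was too low to test.

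Glutathione peroxidases differed most through Gpx3, a secreted selenoprotein that reduces peroxides outside cells. Gpx3 lies on the plus strand of chr11:54902854-54910387 and was at 501, 341, 453 and 65.3 CPM in LP replicates 1 to 4 and 4451, 3715, 5753 and 2096 CPM in mature replicates 1 to 4. Mature libraries were all above LP libraries, of which replicate 4 was far below the others, and the mean was 11.8-fold higher in mature cells (log2 fold change -3.56, SE 0.57, adjusted p = 0.0017). By counts Gpx3 ranked between 10 and 41 among all genes in the mature libraries and between 213 and 3091 in LP libraries, and it took 0.207% to 0.558% of the counts of each mature library. It set the family's direction: glutathione peroxidases summed to 790.2 to 1248 CPM in LP and 2792 to 6256 CPM in mature libraries, while without Gpx3 they summed to 679 to 890.2 and 504 to 697 CPM, ranges that overlap.

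Gpx2, a cytosolic enzyme best known from the gut epithelium, was at 7.84, 8.63, 16.9 and 10.3 CPM in LP replicates 1 to 4 and 0.562, 1.58, 4.47 and 1.66 CPM in mature replicates 1 to 4. All LP libraries were above the mature libraries (log2 fold change 2.38, SE 0.61, adjusted p = 0.0174), among which replicate 3 was highest. The call was lost without LP replicate 3 (adjusted p = 0.0539), and without mature replicate 3 the log2 fold change was 3.14. Its processed pseudogene Gpx2-ps1 shares 36.1% of its 51-base windows with Gpx2. It was at 2.47, 2.16, 2.82 and 2.50 CPM in LP replicates 1 to 4 and 0.422, 0.525, 1.30 and 0.301 CPM in mature replicates 1 to 4, from 67 counts in LP and 16 in mature cells. Its groups did not overlap, but the call (log2 fold change 1.92, SE 0.62, adjusted p = 0.0446) held only without mature replicate 3 (log2 fold change 2.58, adjusted p = 0.0222) when each of the 8 libraries was left out in turn. The other 7 gave adjusted p-values from 0.0957 (without LP replicate 2) to 0.122 (without mature replicate 1). It was also not called with a replicate block (adjusted p = 0.0722) or by DESeq2 (0.0623).

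Gpx1 and Gpx4, the broadly expressed members, did not pass the test. Gpx1, the main cytosolic and mitochondrial enzyme, was at 590.2, 706, 489 and 523 CPM in LP replicates 1 to 4 and 405, 398, 339.8 and 529.6 CPM in mature replicates 1 to 4. A single mature library, replicate 4, reached into the LP range (log2 fold change 0.46, SE 0.19, adjusted p = 0.0985), and without it the gene was called (adjusted p = 0.0347), as it was by DESeq2 with all libraries (0.0493). Gpx4, which reduces phospholipid hydroperoxides in membranes and protects against ferroptosis, was at 137, 159.7, 144 and 162 CPM in LP replicates 1 to 4 and 107, 142, 125 and 154 CPM in mature replicates 1 to 4. Its fractions overlapped (log2 fold change 0.19, SE 0.16, adjusted p = 0.416), and 61.5% of its 51-base windows also occur in the pseudogene Gpx4-ps2. The ratio of Gpx3 to Gpx1 in CPM ran from 0.125 to 0.926 in LP and from 3.96 to 16.9 in mature libraries. Gpx8, an enzyme of the endoplasmic reticulum, was not called (log2 fold change 0.67, adjusted p = 0.438), and Gpx7 was too low to test. Gpx5 and Gpx6, at 0 counts, can have reached up to 0.0583 CPM over the libraries together, a limit that covers counting error only.

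Peroxiredoxins kept a similar sum in both fractions but a different composition. Together with Srxn1 they summed to 2315 to 2631 CPM in LP and 2055 to 3064 CPM in mature libraries, ranges that overlap. Prdx1, a cytosolic 2-Cys peroxiredoxin and an NRF2 target in other cells, was at 1146, 1271, 1025 and 1229 CPM in LP replicates 1 to 4 and 443, 501, 508 and 587 CPM in mature replicates 1 to 4. Every LP library was above every mature library (log2 fold change 1.20, SE 0.16, adjusted p = 0.000859). Prdx6, a 1-Cys peroxiredoxin that uses glutathione instead of thioredoxin and also has phospholipase A2 activity, was at 529, 394, 346 and 398 CPM in LP replicates 1 to 4 and 1063, 914, 674 and 1306 CPM in mature replicates 1 to 4. Here all mature libraries were above the LP libraries, with mature replicate 3 the lowest (log2 fold change -1.25, SE 0.23, adjusted p = 0.00343). The ratio of Prdx1 to Prdx6 in CPM was 2.17 to 3.23 in LP libraries and 0.416 to 0.754 in mature libraries. Its retrocopy Prdx6b was at 75.4, 56.6, 53.8 and 56.7 CPM in LP replicates 1 to 4 and 149, 124, 97.4 and 187 CPM in mature replicates 1 to 4 (log2 fold change -1.20, SE 0.22, adjusted p = 0.00312). Prdx6b was 13.5% to 15.5% of Prdx6 in every library. The pair shares 0.2% of exact 51-base windows, and whether the counting kept their reads apart was not tested, so Prdx6b is uncertain.

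Prdx2, a cytosolic enzyme abundant in red blood cells, was at 259, 270.3, 268 and 302 CPM in LP replicates 1 to 4 and 380.0, 443, 367 and 472 CPM in mature replicates 1 to 4. All mature libraries were above the LP libraries by a small margin (log2 fold change -0.60, SE 0.15, adjusted p = 0.0151), and the call was lost without LP replicate 1 (adjusted p = 0.053). Hba-a1, an erythroid marker, ran from 1.87 to 75.9 CPM in LP and from 6.04 to 62.7 CPM in mature libraries and was not called, although without LP replicate 4 it was called higher in mature cells (adjusted p = 0.0168). Prdx4, the peroxiredoxin of the endoplasmic reticulum, was at 54.6, 69.6, 84.5 and 69.4 CPM in LP replicates 1 to 4 and 11.7, 26.8, 48.5 and 28.5 CPM in mature replicates 1 to 4. LP libraries were above mature libraries, with mature replicate 3 nearest to them (log2 fold change 1.27, SE 0.35, adjusted p = 0.0239). Its call was lost without LP replicate 2, 3 or 4 (adjusted p = 0.0541, 0.0621 and 0.0526) and without mature replicate 2 or 4 (0.059 and 0.0534). Prdx3 of mitochondria was not called (log2 fold change 0.19, adjusted p = 0.613). Prdx5 did not overlap between the fractions, with LP higher, and was not called (0.35, adjusted p = 0.0867), while Trmt112 on the opposite strand shares 19.1% of its exonic bases. Srxn1, which repairs overoxidised 2-Cys peroxiredoxins and is a known NRF2 target, was at 31.8, 29.2, 46.1 and 32.7 CPM in LP replicates 1 to 4 and 30.1, 21.0, 10.97 and 19.6 CPM in mature replicates 1 to 4. Mature replicate 1 reached into the LP range and the gene was not called (log2 fold change 0.78, SE 0.31, adjusted p = 0.0911). Without that library it was (adjusted p = 0.037).

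In the thioredoxin system the cytosolic thioredoxin and its inhibitor went opposite ways. Txn1, the electron donor of the 2-Cys peroxiredoxins, was at 150.3, 172, 147 and 171 CPM in LP replicates 1 to 4 and 109, 112, 113 and 108 CPM in mature replicates 1 to 4. LP libraries were all above the mature libraries, with little spread in either fraction (log2 fold change 0.53, SE 0.13, adjusted p = 0.0144). Txnip, which binds and inhibits thioredoxin and is induced by glucose, was at 692, 472, 772 and 709.5 CPM in LP replicates 1 to 4 and 1223, 851, 1164 and 1980 CPM in mature replicates 1 to 4. Mature libraries were all above LP libraries, and mature replicate 4 was the highest (log2 fold change -0.98, SE 0.27, adjusted p = 0.0219). The call of Txnip was lost without LP replicate 1, LP replicate 2 or mature replicate 4 (adjusted p = 0.0526, 0.069 and 0.0535), and Gm15441 on the opposite strand covers 19.4% of its exonic bases. Txnrd1, the cytosolic thioredoxin reductase, was at 102, 55.6, 78.7 and 90.3 CPM in LP replicates 1 to 4 and 56.7, 61.2, 59.8 and 75.8 CPM in mature replicates 1 to 4. It overlapped between the fractions and was not called (log2 fold change 0.37, SE 0.20, adjusted p = 0.217). The mitochondrial Txn2 and Txnrd2 were not called either (log2 fold changes -0.07 and 0.27, adjusted p = 0.746 and 0.579).

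Catalase and the mitochondrial superoxide dismutase were higher in LP. Cat, the peroxisomal enzyme that splits hydrogen peroxide into water and oxygen, was at 129, 135, 122 and 172 CPM in LP replicates 1 to 4 and 20.9, 33.9, 106 and 38.9 CPM in mature replicates 1 to 4. All LP libraries exceeded the mature libraries, but mature replicate 3 came close to them (log2 fold change 1.48, SE 0.42, adjusted p = 0.0246). Without it the log2 fold change was 2.19 (adjusted p = 0.00034), while the call was lost without LP replicate 2 or 4 (0.052 and 0.0647) and without mature replicate 2 or 4 (0.0683 and 0.0656). Sod2, the manganese enzyme of the mitochondrial matrix, was at 185, 181, 202 and 192 CPM in LP replicates 1 to 4 and 101, 92.2, 102 and 157 CPM in mature replicates 1 to 4. LP libraries were tightly grouped above the mature libraries, of which replicate 4 was highest (log2 fold change 0.75, SE 0.18, adjusted p = 0.0139). Sod1, the copper and zinc enzyme of the cytosol, was at 62.6, 59.4, 76.2 and 92.3 CPM in LP replicates 1 to 4 and 52.5, 58.3, 85.0 and 79.2 CPM in mature replicates 1 to 4. The fractions overlapped and the gene was not called (log2 fold change 0.08, SE 0.21, adjusted p = 0.825, 95% interval -0.39 to 0.55). Sod3, the extracellular form, was too low to test.

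Metallothioneins were higher in mature cells, Mt2 with the largest difference in that direction of all 48 genes. Mt1 and Mt2 lie side by side on the plus strand of chromosome 8, at chr8:94178883-94180327 and chr8:94172618-94173567. Mt1 was at 286, 188, 198 and 222 CPM in LP replicates 1 to 4 and 2869, 2586, 667 and 1847 CPM in mature replicates 1 to 4. Each mature library was above all LP libraries, and mature replicate 3 was well below the other 3 (log2 fold change -3.15, SE 0.40, adjusted p = 0.000644). Mt2 was at 48.4, 33.2, 34.5 and 41.8 CPM in LP replicates 1 to 4 and 839, 713, 159 and 455 CPM in mature replicates 1 to 4. It was ordered in the same way (log2 fold change -3.78, SE 0.45, adjusted p = 0.000479), and means were 8.90-fold higher for Mt1 and 13.7-fold higher for Mt2 in mature cells. Without mature replicate 3 the log2 fold changes were -3.41 and -4.05. Mt2 was 16.9% to 18.8% of Mt1 in LP libraries and 23.9% to 29.3% in mature libraries, ranges that do not overlap. Of the exonic bases of Mt2 73.5% are shared with Gm45774 on the opposite strand, and whether the counting used strand is not given in the sources used here.

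The metal response element is the DNA element through which the zinc sensor MTF1 induces these genes, and its core was searched as TGCNCNC on both strands. Such a short core is common: it was present at least once in 51% of all promoter windows and at least 3 times in 7.1%. The Mt2 window held 6, and 2.3% of all windows held at least 4. The 3 Mt2 cores nearest to but before the start are printed, with the core in capitals, which reads as its reverse complement where it lies on the opposite strand.
Mt2 core beginning 128 bases before the start, chr8:94172480-94172506, plus strand: gcagacccttTGCGCTCagctcctttg
Mt2 core beginning 113 bases before the start, chr8:94172495-94172521, plus strand: tcagctccttTGCTCTCagtccctgag
Mt2 core beginning 50 bases before the start, chr8:94172558-94172584, plus strand: gggggagggcGTGTGCAggctctgtcc
The Mt1 window held 3, beginning 23 bases before the start and at bases 3 and 21 counted from the start. Windows of Gstm1, which was higher in LP, and of Gclm and Srxn1, which were not called, also held 3. Of the 61 windows of antioxidant genes 31 held at least 1 core (50.8%) and 6 at least 3 (9.84%), beside the 51% and 7.1% of all windows. These matches are descriptions of the letters in the windows.

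Opposite differences within a family or complex recurred. They were found in the alpha class (Gsta3 against Gsta4), in the mu class (Gstm1, Gstm4 and Gstm5 against Gstm2), in the glutathione peroxidases (Gpx2 against Gpx3), in the peroxiredoxins (Prdx1 and Prdx4 against Prdx2 and Prdx6) and between Txn1 and Txnip.

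**Figure D3:**
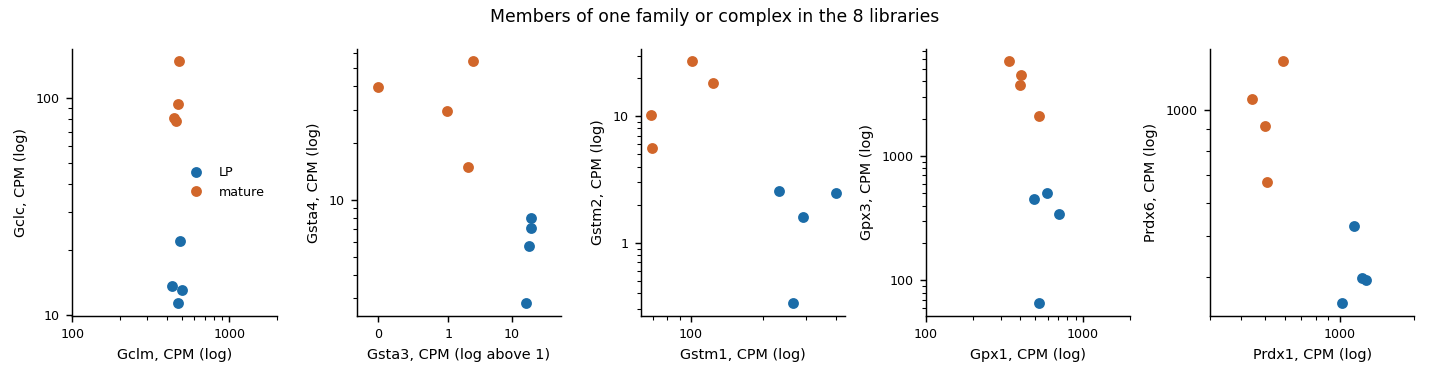
Members of a family or complex plotted against each other in the 8 libraries, in CPM on log axes (the Gsta3 axis is linear below 1 CPM). Blue points are LP libraries and orange points mature libraries. Gclc and Gpx3 separate the fractions while Gclm and Gpx1 overlap, and in the panels of Gsta3 and Gsta4, Gstm1 and Gstm2, and Prdx1 and Prdx6 the fractions take opposite corners.

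Added over families, LP carried more transferase RNA and mature cells more RNA of Gpx3 and metallothioneins. Microsomal transferases summed to 1351 to 1786 CPM in LP and 179 to 366 CPM in mature libraries, and metallothioneins to 222 to 335 and 826 to 3709 CPM. All 57 genes summed to 8830 to 9630 CPM in LP and 12970 to 15380 CPM in mature libraries, or 0.965% to 1.02% and 1.22% to 1.40% of the counts of each library. Per kilobase of exon, the most abundant antioxidant genes of LP were Mgst1 (734 CPM), Gpx1 (401) and Prdx1 (384), and those of mature cells were Gpx3 (2208), Mt1 (1599) and Mt2 (921).

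**Figure D4:**
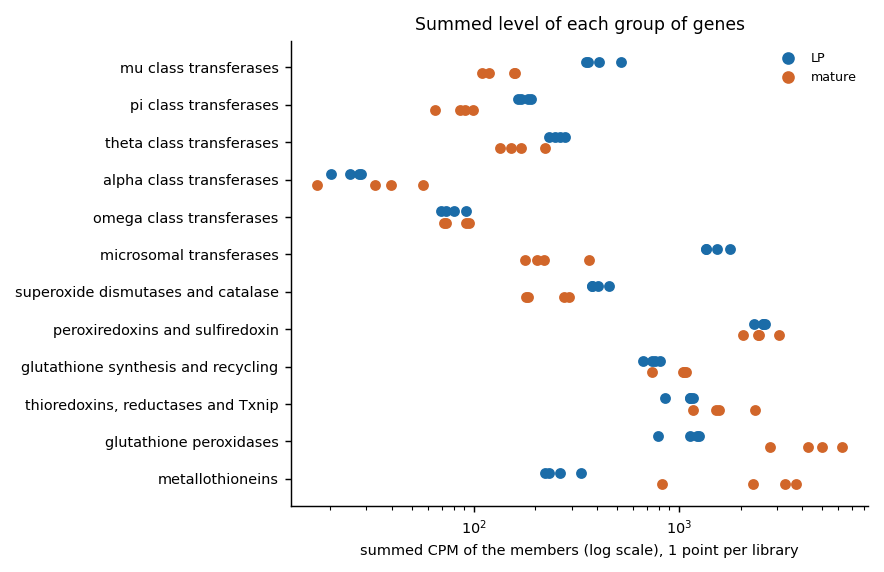
Summed level of each family of antioxidant genes in CPM (log scale). Points are libraries (blue LP, orange mature). Microsomal, mu and pi transferases lie higher in LP, metallothioneins and glutathione peroxidases lie higher in mature cells, and the peroxiredoxins overlap at means of 2518 and 2502 CPM.

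Mature replicate 3, the library with the raised sum of dissociation genes, was often the mature library closest to LP. It was nearest in 8 of the 16 genes called higher in LP (50%, against 41.7% of all genes so called) and in 7 of the 10 called higher in mature cells (70%, against 35.9%). Without it 25 of the 26 calls were retained, Gstm4 was lost, and Hmox1, Gsr and Gpx8 were added.

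Around these genes, a list of 68 further glutathione, thiol and NRF2 pathway genes was examined, of which 64 were tested. In this list 21 were called (32.8%), 16 higher in LP and 5 in mature cells. Of all genes 24.7% were called, 10.9% toward LP and 13.8% toward mature cells. The median log2 fold change was 0.09 and the median absolute value 0.45. The listed enzymes that make NADPH, the reductant of glutathione and thioredoxin reductases, were higher in LP: G6pdx (0.89, adjusted p = 0.00801) and Pgd (0.99, 0.00399) of the oxidative pentose phosphate pathway, and the malic enzyme Me1 (0.99, 0.00283). Taldo1 and Tkt, which act in the non-oxidative branch of that pathway, were also higher in LP. Taldo1 was at 613, 672, 703 and 1098 CPM in LP replicates 1 to 4 and 174, 224, 256 and 192 CPM in mature replicates 1 to 4, with no overlap (log2 fold change 1.87, SE 0.22, adjusted p = 0.00049), and Tkt had a log2 fold change of 1.34 (adjusted p = 0.000473).

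Of the other genes with the largest differences toward LP, Fth1, the ferritin heavy chain that stores iron, was at 4234, 3884, 4540 and 3947 CPM in LP replicates 1 to 4 and 1234, 1354, 1219 and 1327 CPM in mature replicates 1 to 4. It did not overlap (log2 fold change 1.69, SE 0.17, adjusted p = 0.000268). Blvra, a biliverdin reductase that acts after haem oxygenase, was higher in LP (log2 fold change 1.55, SE 0.36, adjusted p = 0.0107), as was the iron exporter Slc40a1 (log2 fold change 1.35, adjusted p = 0.00764). Of the genes of the selenium pathway, on which selenoproteins such as Gpx3 depend, those called higher in LP were Sephs2, which makes selenophosphate (log2 fold change 1.70, SE 0.32, adjusted p = 0.00371), the elongation factor Eefsec (1.04, adjusted p = 0.00585) and the selenium carrier Selenop (log2 fold change 2.08, SE 0.60, adjusted p = 0.0276). Secisbp2, which binds selenoprotein messages, was not called (0.22, adjusted p = 0.698). Selenop was at 256, 334, 284 and 335 CPM in LP replicates 1 to 4 and 14.1, 30.7, 175 and 65.2 CPM in mature replicates 1 to 4. Mature replicate 3 was far above the other mature libraries, and without it the log2 fold change was 3.06 (adjusted p = 0.00121). The call of Selenop was lost without LP replicate 2, 3 or 4 (adjusted p = 0.0627, 0.0512 and 0.0601) or mature replicate 2 or 4 (0.0697 and 0.0677).

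The remaining genes called higher in LP were Ephx1, the microsomal epoxide hydrolase (log2 fold change 1.34, adjusted p = 0.00104), Glo1, the first glyoxalase (0.63, 0.0232), Rbx1, a subunit of the ubiquitin ligase that KEAP1 directs (0.64, 0.0235), and the small selenoprotein Selenow (0.42, 0.0451). The call of Glo1 was lost without LP replicate 1, 2 or 4 (adjusted p of at most 0.0714), that of Rbx1 without LP replicate 2 or 4 (at most 0.068), and that of Selenow without any single library other than mature replicate 2 (at most 0.11) and with a replicate block (0.0576).

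Gamma-glutamyl transferases, which start the breakdown of glutathione outside the cell, differed by member. Ggt1 was at 4.36, 4.03, 0 and 4.02 CPM in LP replicates 1 to 4 and 65.1, 52.8, 17.2 and 29.4 CPM in mature replicates 1 to 4. It was called higher in mature cells, with no overlap (log2 fold change -3.70, SE 0.73, adjusted p = 0.00496). Ggt6 was higher in LP (log2 fold change 2.43, SE 0.76, adjusted p = 0.0394), from 199 and 36 counts, and its call was lost when any single LP replicate was left out (adjusted p = 0.0642 without replicate 2 to 0.102 without replicate 4) or without mature replicate 3 (0.0707). The small Maf proteins pair with NRF2 and BACH1 on the antioxidant response element. Among these, Maff (log2 fold change -2.01, SE 0.32, adjusted p = 0.00169) and Mafk (log2 fold change -1.45, SE 0.28, adjusted p = 0.00423) were higher in mature cells, and Mafg was not called (-0.09, adjusted p = 0.8). Bach1, the competitor of NRF2, was not called (0.07, adjusted p = 0.918), nor were the cystine transporter Slc7a11 (0.45, adjusted p = 0.302) and the KEAP1-binding autophagy adaptor Sqstm1 (-0.40, adjusted p = 0.13). Hagh, the second glyoxalase (log2 fold change -1.25, SE 0.21, adjusted p = 0.00217), and Cbr1, a carbonyl reductase (log2 fold change -0.85, SE 0.16, adjusted p = 0.00371), were the remaining genes called higher in mature cells.

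Enzymes that make superoxide or hydrogen peroxide were listed as well, and 7 of 14 could be tested, of which 2 were called (28.6%, beside 24.7% of all genes). Xdh, the xanthine oxidoreductase that also helps secrete milk fat droplets, was at 474, 404, 466 and 646 CPM in LP replicates 1 to 4 and 11.5, 12.3, 39.3 and 20.8 CPM in mature replicates 1 to 4. All LP libraries lay far above the mature libraries (log2 fold change 4.56, SE 0.40, adjusted p = 0.000143). Cyba, a membrane subunit of NADPH oxidases, was the other gene called, also higher in LP (log2 fold change 0.67, SE 0.19, adjusted p = 0.0293), but the call was lost without LP replicate 3 or 4 or mature replicate 1 or 2 (adjusted p of at most 0.0866). Nox1, Nox4, Aox1, Maoa and Maob were not called.

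**Figure D5:**
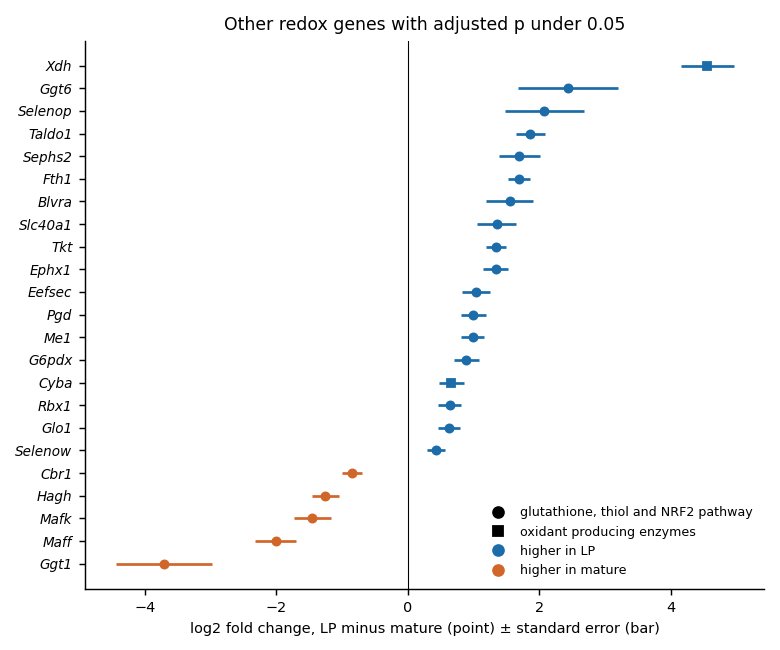
Log2 fold change, LP minus mature (x axis), of the called genes (adjusted p under 0.05) around the antioxidant systems and among the enzymes that make superoxide or hydrogen peroxide. Genes that were not called are not shown. Points are edgeR estimates and bars their standard errors. Circles are glutathione, thiol and NRF2 pathway genes and squares the oxidant producers (blue higher in LP, orange higher in mature cells). Called genes run from -3.70 (Ggt1) to 4.56 (Xdh).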

How the data were processed

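Counts per gene of 4 LP and 4 mature libraries were used. The authors trimmed reads with cutadapt and aligned them to mm10 with Bowtie2 (versions 4.2 and 2.3.5.1 in the submitters' processing notes, which also list hg19), and deposited raw counts for 24594 Entrez Gene IDs without normalization. How reads were counted, with which strand setting, and what was done with those that fit more than 1 gene, is not given in the sources used here. Symbols and positions came from RefSeq (24570 IDs matched). Samples were grouped by their titles.

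Counts were analysed in R 4.3.3 with edgeR 4.0.16: filterByExpr by fraction left 12816 genes, factors were TMM, and the fractions were tested against each other by the quasi-likelihood F-test, with p-values adjusted by Benjamini-Hochberg over those genes (threshold 0.05). The SE of a log2 fold change was obtained from its size and the F statistic (size over the root of F). CPM use TMM-scaled totals with no added count. The common biological coefficient of variation was 0.393. Python 3.11.15 and pandas 2.3.3 made the summaries, and exact windows of 51 bases shared between transcripts were counted for all 57 genes.

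The alternatives were RLE factors, no filter, the Wald test of DESeq2 1.42.0, a replicate block and leaving out each library. The members, the lists and the rule for named genes were chosen with earlier results of these data known. By that rule the genes named were the members called, 17 fixed members whatever their values and, of the other pathway genes called, up to 6 a direction by size of change. Other pathway genes beyond these, and the oxidant producers, were named after their values were seen. Totals of 4410049 to 7791593 counts mean that genes under about 1 CPM rest on few counts.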

Additional observations from a re-analysis of the deposited data

Results flagged for a closer look

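Libraries were examined for values far from the others of their fraction, over 72 sets of 4 libraries (36 genes in each fraction). A library was listed where its gap to the nearest other library, divided by the range of the fraction, was above Dixon's 95% critical value for 4 samples, which chance gives in about 1 in 20 sets, or 3.60 here. This was met by 2 values.

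Prdx6b in LP replicate 1 was at 75.4 CPM against 53.8 to 56.7 CPM in the other LP libraries, a gap of 0.863 of the range. Sod2 in mature replicate 4 was at 157 CPM against 92.2 to 101.5 CPM in the other mature libraries, a gap of 0.857 of the range. Without these libraries both genes kept their calls, with a log2 fold change of -1.32 (adjusted p = 0.00624) for Prdx6b and 0.98 (adjusted p = 0.00235) for Sod2.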

How the results depend on the processing

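The count of called antioxidant genes was 26. It was 26 with RLE factors, 25 with no filter, 29 with the DESeq2 Wald test and 21 to 28 when each library was left out. Over the libraries left out, 12 to 16 were called with LP above and 8 to 12 with mature cells above, and for the other pathway genes the count was 16 to 21. Of all genes 24.7% were called in the main fit, 29.6% by DESeq2, 23.6% with a replicate block and 26.2% without mature replicate 3. That share was not taken for the other settings, so their counts have no such share beside them. Of 47 named genes, RLE factors changed no call. With no filter the call of Gpx2-ps1 was lost. By DESeq2 it was lost too, and Hmox1, Gsr and Gpx1 gained a call. Directions reversed for 2 genes that were never called: Gclm had a log2 fold change of -0.0019 without LP replicate 4, in a range of -0.0019 to 0.0687 over the libraries left out, and Sod1 had -0.0565 without LP replicate 4 and -0.0187 without mature replicate 1, in a range of -0.0565 to 0.223. Leaving out a library changed a call of Gstm4, Gpx2, Gpx2-ps1, Prdx2, Prdx4, Txnip, Cat, Ggt6, Selenop, Hmox1, Keap1, Srxn1, Gsr and Gpx1 among the named genes, with fewer libraries in each of these fits, and the values stand beside those genes.

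With the replicate number as a block, 25 antioxidant genes (15 higher in LP, 10 in mature cells) and 21 other pathway genes were called, and of the genes named by the rule only Gpx2-ps1 changed its call (adjusted p = 0.0722). Labels give the fractions the same numbers, and the descriptions of the LP and mature library of a number also open with a shared identifier, without saying what either stands for. Deviations from the fraction means correlated at 0.113, 0.0618, 0.148 and 0.0844 for libraries with the same number. In 7 of 8 libraries the own number correlated best, the exception being mature replicate 2, which correlated best with LP replicate 1 (0.0779).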
